A study of Mus musculus with 8 samples.

Results

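Interferon-stimulated genes and the genes that sense nucleic acid were followed across 8 RNA-seq libraries of mouse mesenchymal cells that carried histone H3 transgenes. The set was chosen by symbol and function, with earlier results of these data known. It held 43 of the 31276 genes in the expression table. It comprised 7 sensors of nucleic acid and their adaptors, 6 transcription factors, 15 antiviral effectors, 6 genes of the ISG15 and ubiquitin systems, 2 PARP genes, 3 guanylate-binding proteins, 3 genes of cell death and inflammatory caspases, and the secreted Lgals3bp. All 43 symbols were found, and 34 were tested. These averaged 1 or more, over the 8 columns, above the table's minimum on its log2 scale, where 1 corresponds to 31.0 normalised reads. The other 9, Zbp1, Oasl1, Oasl2, Mx1, Mx2, Rsad2, Isg15, Trim25 and Casp1, were set apart and are given by their reads. At the limit, Ifi44 stood just inside with a mean of 1.05 above the lowest value, and Isg15 just outside with 0.99.

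The cells were C3H10T1/2, a multipotent mesenchymal line derived from C3H mouse embryos, between passages 10 and 15 and grown in DMEM with 10% fetal bovine serum. Every line stably expressed a FLAG-HA-tagged histone transgene beside its own histones, and no line without a transgene was among the samples. The transgene was H3.3 as wild type (WT) or with lysine 36 changed to alanine (K36A), isoleucine (K36I), leucine (K36L), methionine (K36M) or arginine (K36R), or H3.1 with K36M or K36R. There was 1 library for each transgene, so the 2 H3.1 and 6 H3.3 libraries are different lines and not repeats of 1 line, and no H3.1 WT line was analysed here. H3.1 is the histone that is laid down with DNA replication and H3.3 the variant laid down throughout the cell cycle. K36M and K36I are known to block the enzymes that methylate lysine 36, and K36R removes the methylation site of the transgene itself. Whether the lines were single clones or pools is not given in the sources used here.

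Type I interferons act through the IFNAR receptor and the kinases JAK1 and TYK2, which switch on a transcription factor complex that holds STAT2 and IRF9. That complex binds the interferon-stimulated response element (ISRE) in the promoters of antiviral genes. The response is switched on when cytosolic sensors meet foreign or displaced nucleic acid: RIG-I (Ddx58) and MDA5 (Ifih1) for RNA and cGAS for DNA, with STING (Tmem173) relaying the cGAS signal to IRF3. AIM2 also binds cytosolic DNA, but it assembles an inflammasome that activates caspase-1. Fibroblasts and mesenchymal cells keep this machinery at a low level without infection.

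The sequences before the transcription start are shown for 6 members that carry an ISRE match and whose levels the results turn on, and for Casp4, which had the largest H3.1 to H3.3 difference and no match. Each is the 170 bases before a RefSeq transcription start on GRCm38.p6, written 5′ to 3′ on the gene's strand. Capitals mark a match to GAAANNGAAA or its reverse complement TTTCNNTTTC, where N is any base. The windows lie at chr3:142620493-142620662 (Gbp2), chr3:142559874-142560043 (Gbp3), chr3:142530166-142530335 (Gbp7), chr19:34640719-34640888 (Ifit1), chr19:34583359-34583528 (Ifit3) and chr9:5308679-5308848 (Casp4) on the plus strand, and at chr8:71537473-71537642 (Bst2) on the minus strand.
Gbp2: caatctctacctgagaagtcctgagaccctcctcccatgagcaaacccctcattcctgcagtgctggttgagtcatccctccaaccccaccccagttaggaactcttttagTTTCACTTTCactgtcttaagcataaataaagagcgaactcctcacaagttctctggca
Gbp3: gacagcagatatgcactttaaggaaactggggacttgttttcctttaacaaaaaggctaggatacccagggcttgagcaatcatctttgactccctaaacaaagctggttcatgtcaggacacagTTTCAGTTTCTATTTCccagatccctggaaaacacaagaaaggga
Gbp7: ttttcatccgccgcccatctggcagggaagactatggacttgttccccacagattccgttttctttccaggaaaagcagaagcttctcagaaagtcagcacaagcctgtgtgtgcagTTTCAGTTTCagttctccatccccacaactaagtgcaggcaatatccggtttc
Ifit1: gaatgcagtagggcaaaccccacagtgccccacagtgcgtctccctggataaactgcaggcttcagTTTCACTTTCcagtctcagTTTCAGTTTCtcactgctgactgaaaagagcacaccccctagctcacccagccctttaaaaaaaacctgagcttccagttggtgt
Ifit3: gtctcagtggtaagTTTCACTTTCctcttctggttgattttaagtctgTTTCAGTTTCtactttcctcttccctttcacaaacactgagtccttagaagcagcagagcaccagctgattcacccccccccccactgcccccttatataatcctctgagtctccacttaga
Bst2: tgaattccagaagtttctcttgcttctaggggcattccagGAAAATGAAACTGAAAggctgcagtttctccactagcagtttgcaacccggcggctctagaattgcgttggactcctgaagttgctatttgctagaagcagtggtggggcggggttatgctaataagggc
Casp4: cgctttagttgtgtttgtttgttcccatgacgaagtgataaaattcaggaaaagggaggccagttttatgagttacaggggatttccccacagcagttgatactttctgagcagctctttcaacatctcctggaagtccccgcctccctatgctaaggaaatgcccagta
The matches began 59 bases before the start in Gbp2, 53 in Gbp7, 45 and 39 in Gbp3, 104 and 85 in Ifit1, 156 and 122 in Ifit3, and 130 and 124 in Bst2. In Gbp3 and Bst2 the 2 matches overlapped each other.

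RefSeq promoter windows of 300 bases, from 250 before to 50 after the start, were found for 35 of the 43 members. An ISRE match lay in the windows of 15 of these 35 genes (42.9%), against 3.99% of all 27025 genes with a window. Of the 22 members with a window whose level was higher in H3.1 lines by the test below, 12 had an ISRE match. Of the 7 tested members with a window that did not pass, 1 had a match (Stat2), and so had 2 of the 6 with too few reads for that test (Isg15 and Rsad2). A match describes these letters only and was not tested as a binding site.

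Total reads per library, recovered from the deposited values, ran from 45448249 (H3.1 K36M) and 53199065 (H3.1 K36R) to between 61139941 and 68020958 in the H3.3 lines, so both H3.1 libraries were the shallowest, and depth and histone variant cannot be told apart. All values below are normalised reads unless a log2-scale difference is named, and that scale is compressed for genes with few reads, where it understates a change. All 10 mesenchymal markers examined were expressed in every library, at a sum of 528754 to 983679 normalised reads. The sum was 528754 to 711472 with K36M or K36I and 711620 to 983679 in the other 5 lines, without overlap. By the test below 1 of the 10, Pdgfra, was higher in H3.1 lines, against 5.65% of all genes, and 0 lower, against 5.37%. Its log2-scale difference was 0.84 (limma adjusted p = 0.00515). Because each group is made of single libraries of separate lines, p-values measure the spread between lines, and a property of the lines other than the transgene cannot be told apart from the transgene. In bulk RNA, fewer cells expressing a gene and less RNA per cell cannot be told apart.

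**Figure D1:**
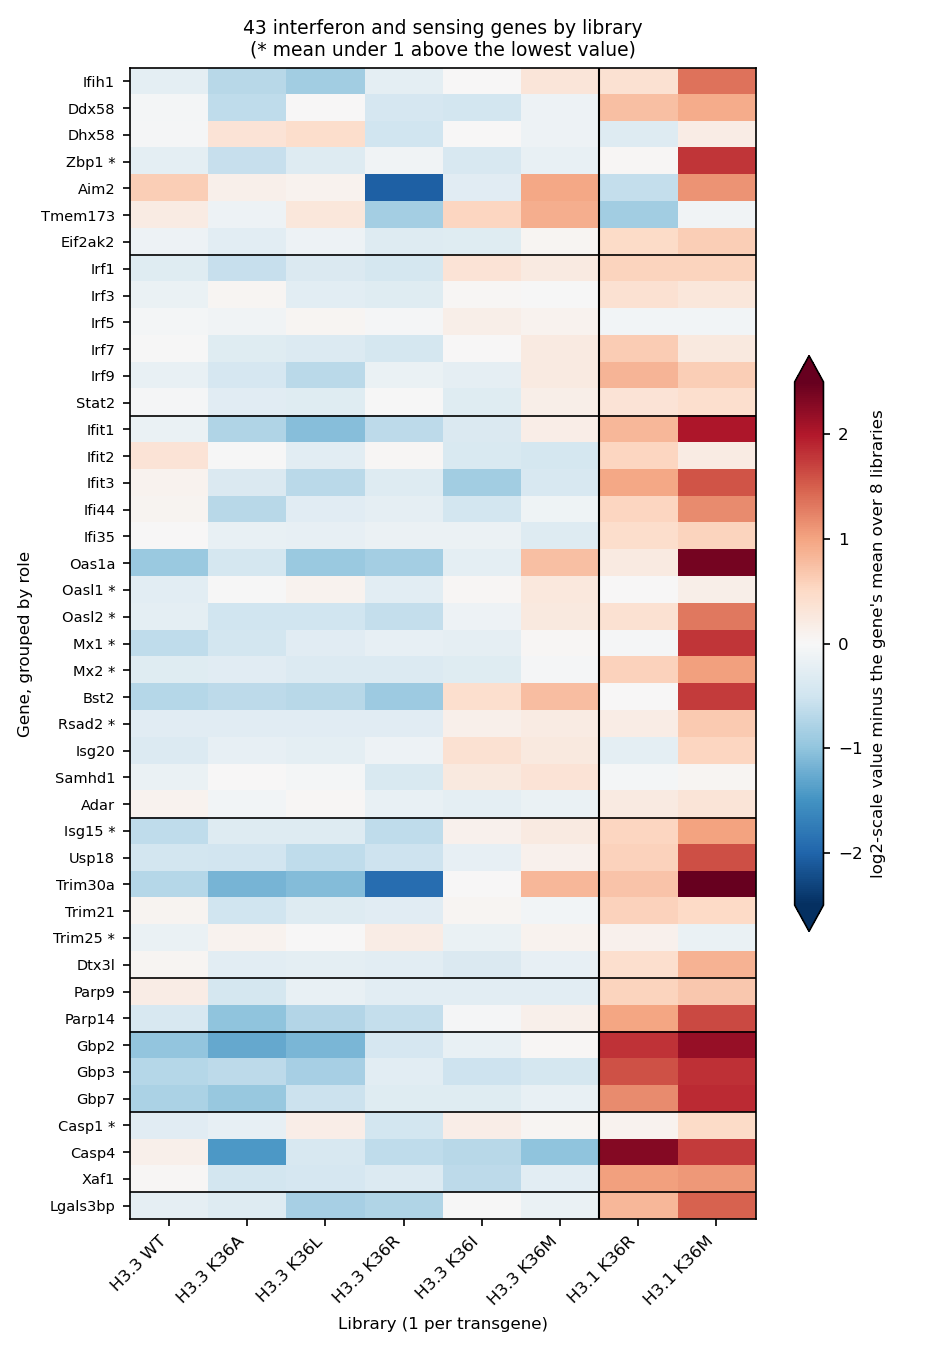
Value of each of the 43 genes (rows, grouped by role) in each library (columns) as the log2-scale value minus the gene's mean over the 8 libraries; red is above and blue below that mean, and an asterisk marks the 9 genes set apart. The 2 columns on the right, H3.1 K36R and H3.1 K36M, hold the highest value of 37 of the 43 genes.

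The first question was whether the lines with an H3.1 transgene differed from those with H3.3. They did for most of these genes, in 1 direction. Of the 34 members tested, 25 were higher in the 2 H3.1 lines and 0 were lower, with the K36M and K36I class held as a term in the limma fit and adjusted p under 0.05 over all 14215 genes tested. Over all genes the same test called 5.65% higher and 5.37% lower, which is also the background for the counts by role below. The members were chosen with earlier results of these data known, so their share is not independent of these data. The median log2-scale difference was 0.90 for the members and 0.00016 for all genes. Both H3.1 libraries stood above all 6 H3.3 libraries in 24 of the 34 members tested, against 10.4% of all genes tested, and below all 6 in 0, against 12.2%. The H3.1 K36M library was the highest of the 8 for 30 of the 43 members and the H3.1 K36R library for 7. The count of 25 depends on the H3.1 K36M library: without it 6 members passed, where 0.922% of all genes were higher and 0.366% lower, and all 25 kept a positive difference. The 6 were Irf1, Usp18, Parp14, Gbp2, Gbp3 and Gbp7. Without the H3.1 K36R library 17 members passed, where 4.54% of all genes were higher and 3.53% lower, and Ifih1, Ddx58, Irf1, Irf9, Ifit2, Adar, Trim21 and Parp9 no longer did. Leaving out 1 H3.3 library at a time ended the call of Irf1, Adar, Ifit2, Trim21, Ifih1, Ifi44, Oas1a, Irf9 or Parp9 in at least 1 fit. Usp18, Parp14, Gbp2, Gbp3 and Gbp7 passed in all 8 fits that leave out 1 library. In a fit of the 4 libraries with K36M or K36R alone these 5 did not pass, with differences of 1.31 to 2.19 and limma adjusted p of 0.0745 to 0.147. Only Casp4 and Trim30a passed there, where 0.0703% of all genes were higher and 0.0141% lower. With the filter raised to a mean of 2 above the lowest value, Usp18, Gbp3 and Gbp7 had too few reads to be tested. Parp14 and Gbp2 still passed with that filter. A voom fit of the recovered reads, chosen after seeing the data, called the same 25 members, where 5.67% of all genes were higher and 4.17% lower. Ifih1, Ifi44 and Oas1a passed the filter only through their H3.1 values and had to differ, while the other 22 called members had an H3.3 mean of at least 1 above the lowest value.

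**Figure D2:**
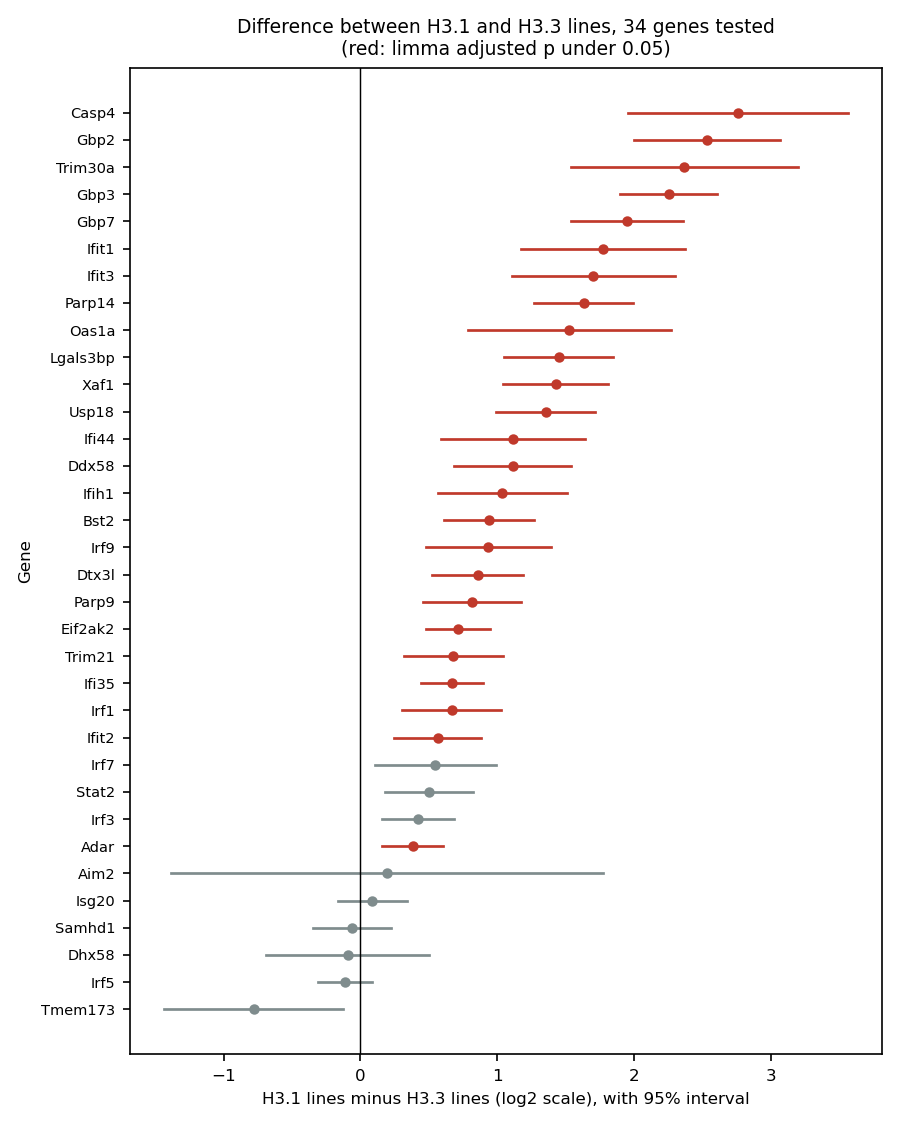
Log2-scale difference of H3.1 lines minus H3.3 lines for each of the 34 genes tested (points), with its 95% interval from limma (lines); red marks an adjusted p under 0.05. Differences run from -0.78 (Tmem173) to 2.76 (Casp4), and 30 of the 34 points lie to the right of 0.

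The guanylate-binding proteins, GTPases that attack the vacuoles and membranes of intracellular pathogens, all rose, 3 of 3. Gbp2 had 885 normalised reads in H3.1 K36R and 1163 in H3.1 K36M, against a lowest, median and highest value of 26.8, 77.4 and 179 in the H3.3 lines. The H3.1 mean of 1024 ± 197 (SD, n = 2) was 11.4-fold the H3.3 mean of 89.8 ± 63.1 (SD, n = 6), and the groups were far apart. The log2-scale difference of Gbp2 was 2.53 (SE 0.23; limma adjusted p = 0.00171). Gbp3 read 447 in H3.1 K36R and 544 in H3.1 K36M against 17.5, 31.7 and 56.0 in the H3.3 lines, a 14.6-fold ratio of means and the smallest adjusted p of the members, 5.82e-04 by limma (2.25, SE 0.15). Gbp7 stood at 343 and 618 against 18.2, 53.7 and 76.3 (1.95, SE 0.18; limma adjusted p = 0.00170). The 3 genes lie in a row on the plus strand of chromosome 3 (GRCm38), Gbp7 at 142530342 to 142550149, Gbp3 at 142560026 to 142573209 and Gbp2 at 142620602 to 142638008. In each of them the highest H3.3 library lay below the lower H3.1 library, and each also passed without either H3.1 library. Gbp7 shares 12.7% of its 50-base words with other genes, so part of its reads may belong to a related gene.

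Among the antiviral effectors, 8 of 10 tested were higher in H3.1 lines, against 5.65% of all genes. The 8 include Oas1a and Ifi44, which passed the filter only through their H3.1 values and had to differ. The IFIT proteins bind viral RNA that lacks the cap marks of the host. Ifit1 had 431 normalised reads in H3.1 K36R and 1124 in H3.1 K36M, while the H3.3 lines had a lowest value of 49.7, a median of 111 and a highest of 231 (1.77, SE 0.26; limma adjusted p = 0.00989). Ifit3 had 1360.1 and 2134 in the H3.1 lines against 301, 464 and 691 (1.70, SE 0.26; limma adjusted p = 0.0105). The groups did not overlap for either gene, and 51.2% of the 50-base words of Ifit3 also occur in other genes, mainly its copy Ifit3b. Ifit2, the most abundant member per kilobase of exon, had a smaller difference: 5647 and 4465 against 2808, 3498 and 4887, with H3.3 WT lying above H3.1 K36M (0.56, SE 0.14; limma adjusted p = 0.0404).

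Oas1a makes the second messenger 2-5A, which activates the RNase that degrades viral RNA. It had 74.3 normalised reads in H3.1 K36R and 672 in H3.1 K36M against 3.72, 13.4 and 145 in the H3.3 lines, so the H3.3 K36M line at 145 overlapped (1.53, SE 0.32; limma adjusted p = 0.0279). It shares 57.6% of its 50-base words with other Oas1 genes. Ifi44, an interferon-induced protein, read 83.1 and 179 against 3.83, 19.2 and 39.0 (1.12, SE 0.23; limma adjusted p = 0.0250). Oas1a and Ifi44 passed the filter only through their H3.1 values, so their p-values are not a test of the difference. Bst2 (tetherin), which holds budding virions at the cell surface, had 298 and 1258 against 112, 147 and 580.2 (0.94, SE 0.14; limma adjusted p = 0.0105), and both H3.3 K36I and H3.3 K36M exceeded H3.1 K36R. Ifi35 and Adar, the latter an enzyme that edits adenosine in RNA, rose by less, with differences of 0.67 and 0.38. The effectors that did not pass were Isg20, an RNA exonuclease, at 0.09, and Samhd1, which hydrolyses deoxynucleotides, at -0.06. Without the H3.1 K36M library none of the 8 effectors passed, with differences from 0.26 (Adar) to 1.49 (Ifit1).

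The caspase and cell death genes rose in both members tested. Casp4, the murine caspase-11 that binds cytosolic lipopolysaccharide, had the largest difference of all: 1351 normalised reads in H3.1 K36R and 881 in H3.1 K36M against 21.1, 85.0 and 212 in the H3.3 lines (2.76, SE 0.35; limma adjusted p = 0.00548). It was also 1 of the 7 members highest in H3.1 K36R. Without the H3.1 K36M library its difference was 2.89 with an adjusted p of 0.0526. Xaf1, an antagonist of the caspase inhibitor XIAP, had 470.1 and 493 against 80.0, 114 and 181 (1.43, SE 0.17; limma adjusted p = 0.00416), and its H3.1 libraries differed by 0.06 on the log2 scale. Without H3.1 K36M the difference of Xaf1 was 1.33 and did not pass. Casp4 lies on chromosome 9 at 5308828 to 5336783 on the plus strand, next to Casp1 at 5298517 to 5307265, which had too few reads to test.

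Of the ISG15 and ubiquitin-type genes, all 4 tested were higher. Usp18 removes ISG15 from proteins and damps signalling at the interferon receptor. It had 132 and 379.8 normalised reads in H3.1 K36R and K36M against 17.5, 26.4 and 71.6 in the H3.3 lines (1.35, SE 0.16; limma adjusted p = 0.00416). Trim30a, a ubiquitin ligase family member, showed the widest range of any member, from 9.50 in H3.3 K36R to 3257 in H3.1 K36M. Its H3.1 K36R value of 446 lay below the 493 of H3.3 K36M, so the groups overlapped (2.36, SE 0.36; limma adjusted p = 0.0106). Trim21, a cytosolic antibody receptor, and Dtx3l, the ligase partner of Parp9, rose by 0.68 and 0.86. Both PARP genes rose: Parp14 had 1034 and 1709 against 179, 301 and 525 (1.63, SE 0.16; limma adjusted p = 0.00211), and Parp9 had 1507 and 1648 against 699, 812 and 1149.7 (0.82, SE 0.16; limma adjusted p = 0.0206). Parp9 and Dtx3l overlap on opposite strands by 458 exon bases, and whether the counting used strand is not given in the sources used here. Lgals3bp, a secreted glycoprotein that binds galectins, had 2669 and 4259.6 against 767, 1187 and 1444 (1.45, SE 0.17; limma adjusted p = 0.00456). Without the H3.1 K36M library Trim30a (1.93), Trim21 (0.83), Dtx3l (0.61), Parp9 (0.72) and Lgals3bp (1.35) did not pass.

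**Figure D3:**
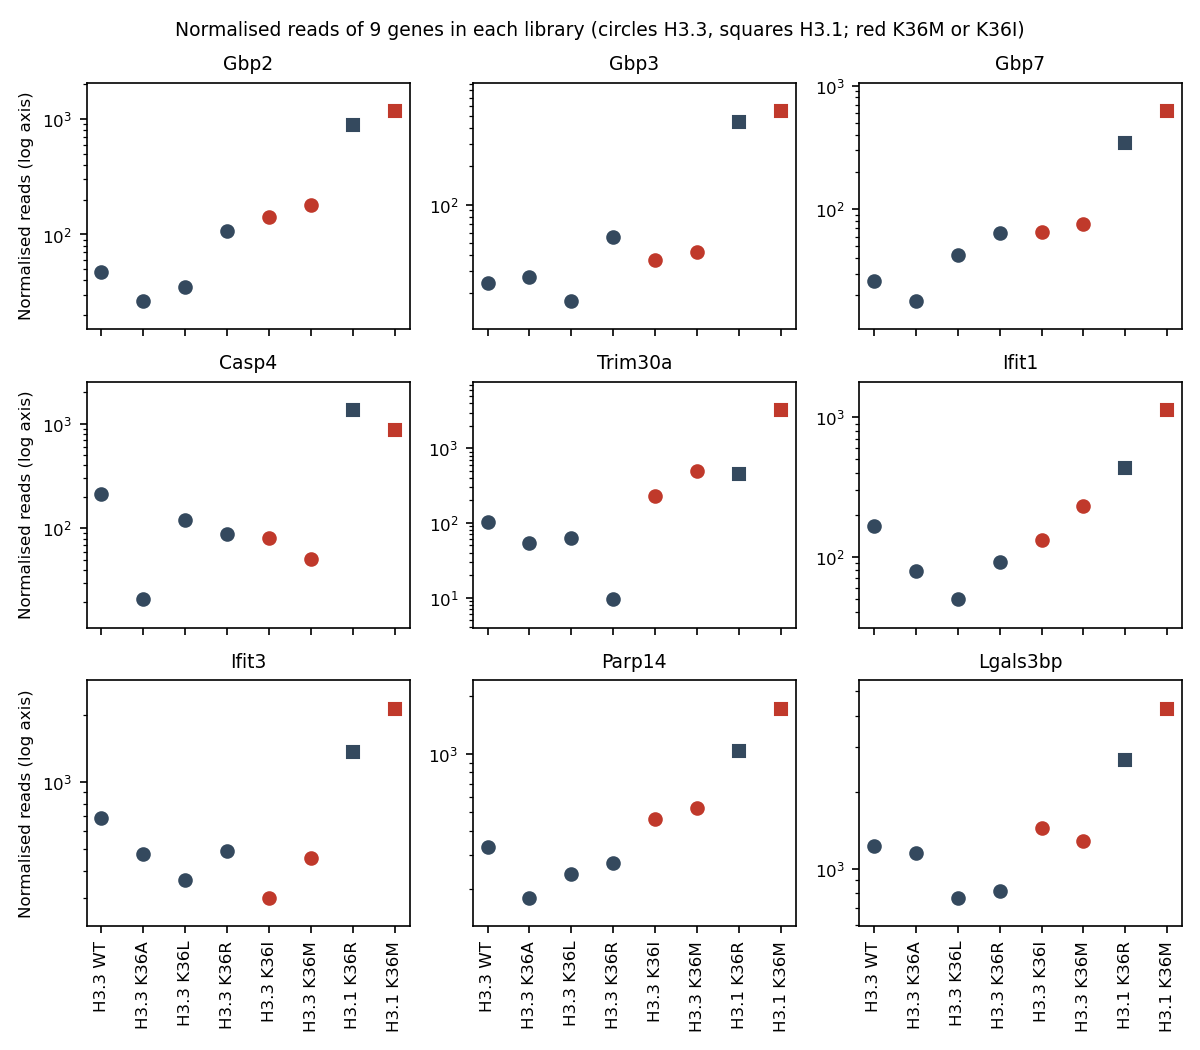
Normalised reads (log axis) of 9 genes in each of the 8 libraries (1 point per library); circles are H3.3 and squares H3.1 lines, and red marks K36M or K36I. The squares lie above every circle in 8 of the panels, and for Trim30a the H3.1 K36R square lies just below the H3.3 K36M circle.

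The sensors were mixed, with 3 of 6 tested higher and 0 lower, against 5.65% and 5.37% of all genes. The 3 include Ifih1, which passed the filter only through its H3.1 values, so its p-value is not a test of the difference. Ddx58 had 3573 and 4026 normalised reads in H3.1 K36R and K36M against 1283, 1704 and 2096 in the H3.3 lines (1.11, SE 0.19; limma adjusted p = 0.0135). Ifih1 had 75.4 and 235 against 1.95, 24.4 and 66.8 (1.04, SE 0.20; limma adjusted p = 0.0230). Eif2ak2, the kinase PKR that stops translation on viral RNA, had 6198 and 6766 against 3512, 3824 and 4529 (0.71, SE 0.10; limma adjusted p = 0.00923). All 3 sense RNA, and without the H3.1 K36M library none of them passed, at 1.03, 0.90 and 0.69. Of the 2 tested members tied to cytosolic DNA, Aim2 and Tmem173, 0 passed. Zbp1, a sensor of Z-form nucleic acid, had too few reads for the test and is given below. Aim2 was spread widely, from 19.0 in H3.3 K36R and 184 in H3.1 K36R to 746 in H3.3 K36M and 839 in H3.1 K36M (0.20, SE 0.68; limma adjusted p = 0.874). Tmem173 had 28.4 in H3.1 K36R and 103 in H3.1 K36M, and 30.4, 152 and 299 as the lowest, median and highest H3.3 values. Its difference of -0.78 (SE 0.28; limma adjusted p = 0.111) was the lowest of the members, and without the H3.3 K36R library it was -0.91 and passed the test. The lowest values of both Aim2 and Tmem173 were those of the K36R lines of both histones. Dhx58, a regulator of RIG-I, did not pass at -0.09 (SE 0.26).

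Of the transcription factors, 2 of 6 passed, both higher, where 5.65% of all genes were higher and 5.37% lower. Irf9, the DNA-binding subunit of the complex that recognises the ISRE, had 1817 and 1527 normalised reads in H3.1 K36R and K36M against 560.2, 817 and 1140.4 (0.94, SE 0.20; limma adjusted p = 0.0281). Irf1, itself an interferon gamma target, had 1796 and 1793 against 746, 909 and 1530.4 (0.67, SE 0.16; limma adjusted p = 0.0370). Without the H3.1 K36R library the difference of Irf1 was 0.28 and did not pass, and without H3.1 K36M that of Irf9 was 1.20 and did not pass. Irf3, Stat2 and Irf7 had both H3.1 libraries above all H3.3 libraries, with differences of 0.42, 0.50 and 0.55 and limma adjusted p of 0.0518, 0.0567 and 0.102. Irf5 was level, with 529 and 527 in the H3.1 lines inside the H3.3 range of 522 to 637.

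The 9 members with few reads were set apart from the test by the filter. Both H3.1 libraries exceeded all H3.3 libraries in 4 of them. Isg15, the ubiquitin-like protein that gives its name to the conjugation pathway, had 76.5 and 139 normalised reads in H3.1 K36R and K36M against 3.72, 13.5 and 46.8 in the H3.3 lines. Mx2, of the dynamin-like GTPase family but annotated as a polymorphic pseudogene, had 71.1 and 130.1 against 9.50, 11.1 and 23.9. Oasl2 had 48.1 and 169.5 against 1.90, 7.53 and 38.2, and Zbp1, a sensor of Z-form nucleic acid, had 28.4 and 289 against 3.83, 12.3 and 21.8. Mx1 had 221 in H3.1 K36M, and its H3.1 K36R value of 10.9 lay within the H3.3 range of 0 to 13.4. Rsad2 (viperin) and Casp1 each reached 27.6 in H3.1 K36M, where Rsad2 was at 0 in 4 of the H3.3 lines. Oasl1 and Trim25 stayed at or under 8.59 in every library. With no filter, over 23001 genes with reads, 28 of the 43 members were higher in H3.1 lines, where 3.44% of all genes were higher and 2.41% lower. That fit added Isg15 (0.94), Mx2 (1.03), Oasl2 (1.03) and Rsad2 (0.48), with limma adjusted p of 0.00833, 0.00328, 0.0105 and 0.00874, and Adar no longer passed at 0.0555. Zbp1 (1.13) and Mx1 (1.05) did not pass, with limma adjusted p of 0.0785 and 0.0701. A gene at 0 reads has an upper limit of 3 reads, 4.41e-06% to 6.60e-06% of a library, which covers counting error only.

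The same substitution could be compared across the histones, 1 library against 1 and so with no test. H3.1 K36M exceeded H3.3 K36M in 31 of the 34 members, 16 of them by at least 1 on the log2 scale, where 3.5% of all genes did so, and 0 were at least 1 lower, against 1.52%. The median was 0.95, against 0.0040 for all genes. H3.1 K36R exceeded H3.3 K36R in 31 of the 34, 17 by at least 1, where 1.84% of all genes did so, and 0 were at least 1 lower, against 1.13%. The median was 0.96, against -0.0175 for all genes. Casp4 led both pairs, at 2.75 and 2.93. In normalised reads Gbp3 was 13.0-fold higher in H3.1 K36M than in H3.3 K36M and 7.98-fold higher in H3.1 K36R than in H3.3 K36R. Aim2 was apart, at 0.15 in the K36M pair and 1.46 in the K36R pair. Within H3.1, the K36M line exceeded the K36R line in 26 members, with a median of 0.29, against -0.0053 for all genes. It was at least 1 lower in 0, against 3.12% of all genes, and at least 1 higher in 6, against 3.9%. Those 6 ran from Trim30a at 2.59 and Oas1a at 2.16 to Usp18 at 1.05, and Casp4 stood lowest of the members at -0.56.

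**Figure D4:**
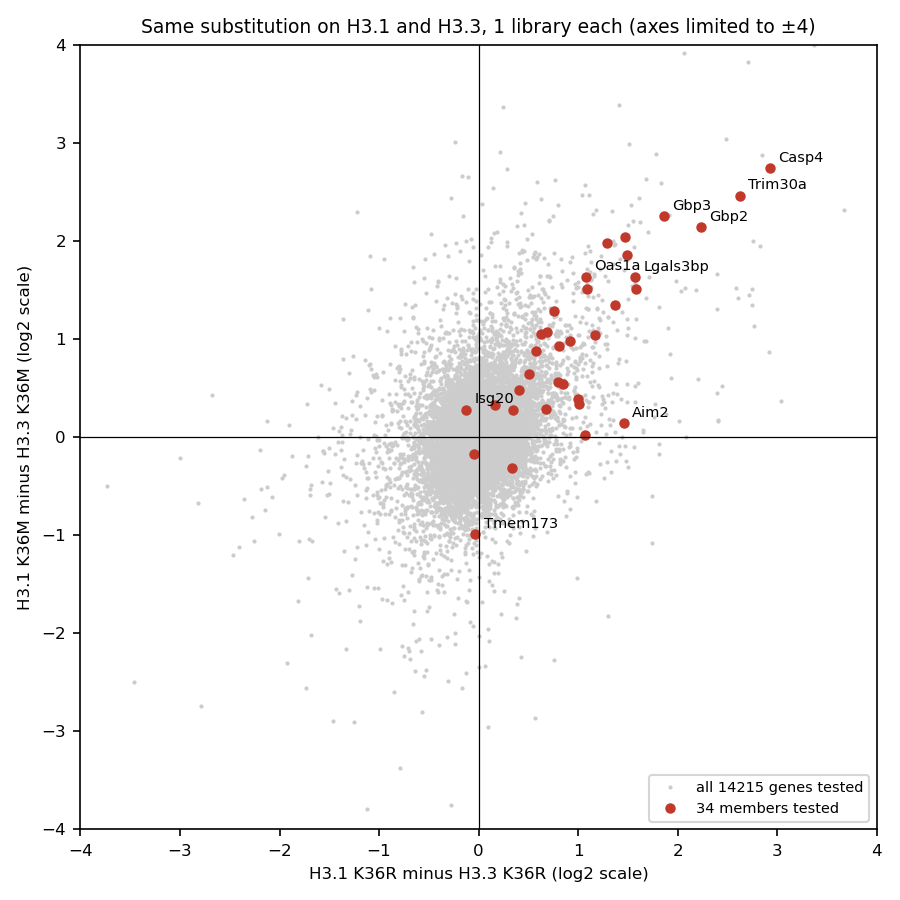
Each point is a gene: the horizontal axis is H3.1 K36R minus H3.3 K36R and the vertical axis H3.1 K36M minus H3.3 K36M, both on the log2 scale with 1 library per line; grey points are all 14215 genes tested and red points the 34 members. Most red points lie in the upper right, up to Casp4 at 2.93 and 2.75; 15 grey genes fall beyond the axes.

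The second question was whether the lines with K36M or K36I, on either histone, differed from the other 5. Here 2 of the 34 members were higher and 0 lower by limma, where 6.45% of all genes were higher and 6.82% lower, so the share of members was near the background. At an unadjusted p under 0.05, 7 members were higher and 0 lower, against 13.7% and 14.6% of all genes, and the median difference was 0.32. Bst2 had 430.5 normalised reads in H3.3 K36I, 580.2 in H3.3 K36M and 1258 in H3.1 K36M, against 142 in H3.3 WT, 150.4 in K36A, 143 in K36L, 112 in H3.3 K36R and 298 in H3.1 K36R. All 3 lay above the other 5 (1.57, SE 0.31; limma adjusted p = 0.0120). Isg20 had 222, 195 and 259 in the same 3 lines, against 99.4, 119, 112, 130.1 and 112 in the other 5, again without overlap (0.61, SE 0.10; limma adjusted p = 0.00603). Samhd1 was the third member whose groups did not overlap, at 3403 to 4243 against 2506 to 3344 (0.34, SE 0.11; limma adjusted p = 0.0778), and 10.0% of all genes showed that separation.

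H3.1 K36R, which belongs to the other 5 lines, was high for most members. Among the 6 H3.3 libraries alone 8 members were higher, against 8.58% of all genes, and 0 lower, against 9.33%. These were Irf1, Oas1a, Bst2, Isg20, Samhd1, Trim30a, Parp14 and Gbp2. Oas1a averaged 0.84 above the lowest value over the H3.3 lines and 0.70 in the 5 lines without K36M or K36I. It passed the filter of 1 only through lines where it was high, so its call is not a test of the difference. Irf1 had 1530.4 and 1388 normalised reads in H3.3 K36I and H3.3 K36M against 926, 746, 892 and 831 in WT, K36A, K36L and K36R (0.71, SE 0.10; limma adjusted p = 0.00580). Parp14 had 459 and 525 against 329.9, 179, 238 and 273 (0.74, SE 0.18; limma adjusted p = 0.0300). Trim30a had 231 and 493 against 104, 53.6, 62.4 and 9.50 (1.63, SE 0.36; limma adjusted p = 0.0237). In each of these 3 genes both the K36I and the K36M line lay above the other 4. With histone as a covariate over all 8 libraries 9 members were higher, against 10.2% of all genes. They include Oas1a and Ifih1, which averaged 0.70 and 0.80 above the lowest value in the 5 lines without K36M or K36I. Both passed the filter only through the K36M and K36I lines, so their calls are not a test.

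The difference of the class effect between the histones could be tested only with 1 H3.1 library of each class, assumed to vary like the H3.3 lines. By limma 0 of the 34 members and 0 of all 14215 genes (0.0% in each direction) were called for a difference of the class effect. In simulated data this fit recovered 17% of planted changes of 1 on the log2 scale and 67% of changes of 2. A call of 0 therefore does not show that the class effect was equal on H3.1 and H3.3. At an unadjusted p under 0.05 there were 1 member higher (Dtx3l) and 2 lower (Irf7 and Irf1), near the background of 6.26% and 4.87% of all genes, and voom on the recovered reads also called 0 members.

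Against the only WT line, every other line was compared 1 to 1 with no test, and all these comparisons share that library. H3.1 K36M had 15 members at least 1 higher and 0 at least 1 lower on the log2 scale, where 6.08% and 4.23% of all genes were. H3.1 K36R had 11 higher and 2 lower (Aim2 and Tmem173), where 2.08% and 1.25% were. H3.3 K36M had 4 higher, Oas1a, Bst2, Trim30a and Gbp2, and Casp4 lower at -1.12, against 4.28% and 4.41% of all genes. H3.3 K36I had only Bst2 higher, against 3.45%, and 0 lower, against 4.17%. H3.3 K36R had 0 higher, against 1.06%, and 3 lower, against 0.696%: Aim2 at -2.67, Trim30a at -1.20 and Tmem173 at -1.05. H3.3 K36A had 0 higher, against 0.76%, and Casp4 lower at -1.56, against 1.32%. H3.3 K36L had 0 either way, against 0.521% and 0.507%. The medians of the 34 members were -0.28 for K36A, -0.24 for K36L, -0.24 for H3.3 K36R, 0.03 for K36I, 0.20 for H3.3 K36M, 0.64 for H3.1 K36R and 0.87 for H3.1 K36M.

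**Figure D5:**
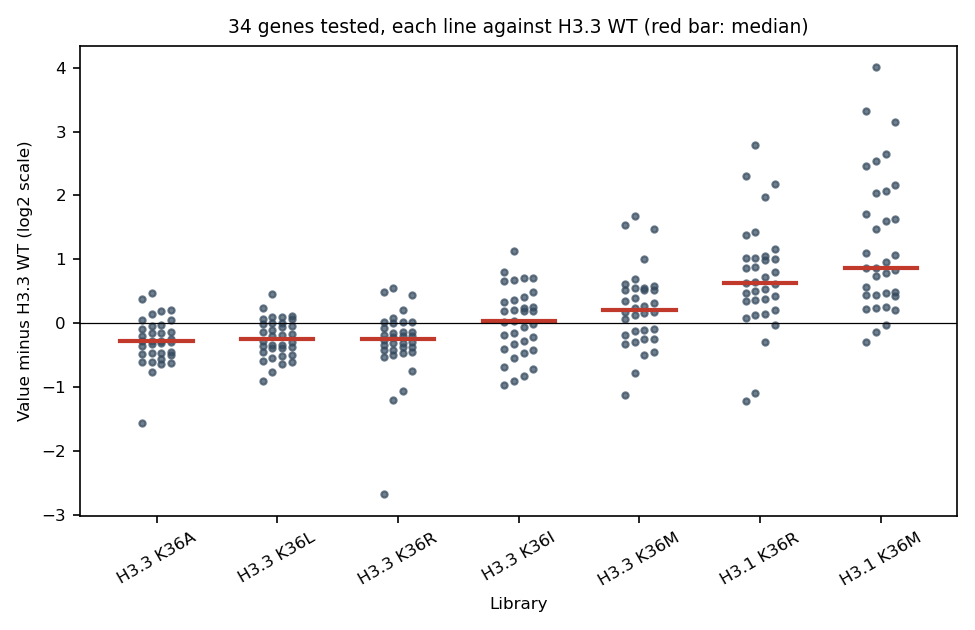
Log2-scale value of each of the 34 genes tested (points) minus its value in the H3.3 WT library, for the other 7 lines (1 library each); red bars are medians. The medians lie between -0.28 and 0.20 in the 5 H3.3 lines and at 0.64 and 0.87 in the H3.1 lines.

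Levels per kilobase of exon, as medians over the 8 libraries, placed Ifit2 first at 984 normalised reads, followed by Eif2ak2 at 783, Ifi35 at 538, Lgals3bp at 442 and Irf3 at 397. Trim25 was last at 0.25. The 5 largest H3.1 differences were in Casp4, Gbp2, Trim30a, Gbp3 and Gbp7, which stood at 28.2, 49.7, 40.7, 12.0 and 11.5 per kilobase. Ifit3 and Lgals3bp, with differences of 1.70 and 1.45, stood at 276 and 442. In the annotation 16 members share exon bases with a different gene, in 13 cases one that runs on the other strand, and 5 members (Ifit1, Ifit3, Oas1a, Trim30a and Gbp7) share more than 5% of their 50-base words with other genes, so the split of reads there is uncertain.

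A list of 147 other genes of the pathway, also chosen with earlier results of these data known, gave 145 in the table and 103 tested. In H3.1 lines 42 of these were higher and 1 lower by limma, where 5.65% and 5.37% of all genes were, with a median of 0.40. Further interferon-stimulated genes made up 32 of the 42, out of 55 tested. Both counts include Iigp1, which passed the filter only through its H3.1 values. Any other such genes were not split off, so the counts are not free of that limit. The largest was Iigp1, an immunity-related GTPase, with 299.6 normalised reads in H3.1 K36R and 977 in H3.1 K36M against 1.90, 8.22 and 38.2 as the lowest, median and highest H3.3 values (2.66, SE 0.18; limma adjusted p = 5.82e-04). Iigp1 passed the filter only through its H3.1 values and had to differ, so its p-value is not a test of the difference. Gbp10 and Gbp6 differed by 1.95 and 1.90, and Casp12, another caspase of the inflammatory family, by 2.20.

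Among the receptors and signalling genes 4 of 13 were higher and 0 lower, against the same 5.65% and 5.37%. The receptor chain Ifnar2 differed by 0.40 (limma adjusted p = 0.0450), and the other chain Ifnar1 by 0.29 (limma adjusted p = 0.0969). Of the 20 upstream sensing genes and adaptors tested, a separate group, 2 were higher and 1 lower, against the same shares. Their median difference was 0.13. Trex1, the exonuclease that clears cytosolic DNA, had 895 and 967 against 427, 469 and 560.3 (0.84, SE 0.10; limma adjusted p = 0.00515). Mb21d1, which encodes cGAS, had 1121 and 1174 against 757, 878 and 979 (0.38, SE 0.11; limma adjusted p = 0.0633). The 1 gene of the 103 that fell was Mavs, the mitochondrial adaptor of RIG-I and MDA5, with 1848 and 1698 against 2284, 2396 and 2563 (-0.41, SE 0.06; limma adjusted p = 0.0117). Interferon genes themselves were close to 0: of 12 looked up, 0 passed the filter, and Ifnb1 had 4 reads in H3.1 K36M, 3 in H3.3 K36M and 2 in H3.3 K36I, with 0 in the other 5 libraries.

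With K36M or K36I 14 of the 103 were higher and 3 lower, where 6.45% and 6.82% of all genes were. The largest was Nlrc5, the transactivator of MHC class I genes, with 1478 normalised reads in H3.3 K36I, 1190.1 in H3.3 K36M and 2935 in H3.1 K36M against 127, 102, 135, 192 and 250.4 in WT, K36A, K36L, H3.3 K36R and H3.1 K36R (2.81, SE 0.29; limma adjusted p = 7.54e-04). Psmb9, a subunit of the immunoproteasome, rose by 1.50 and Nlrp1b, an inflammasome sensor, by 1.91. Tlr3, an endosomal RNA sensor, was 1 of the 3 that fell, by 0.68.

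Markers of leukocytes, which express many of these genes at high levels, were also read. Only 3 of the 13 passed the filter (Cd68, Cd14 and Lyz2), and Lyz2 was higher in H3.1 lines (0.78; limma adjusted p = 0.00742). The groups overlapped for Lyz2, with 355 normalised reads in H3.1 K36R and 679 in H3.1 K36M against 373 in H3.3 K36M. The summed level of the 13 was 851 in H3.1 K36R and 1743 in H3.1 K36M and ranged from 453 to 1139 in the H3.3 lines. The defining markers Cd3e and Tyrobp were at 0 in both H3.1 libraries, and Ptprc (CD45) had 0 and 7.89 normalised reads there. Csf1r, a receptor of macrophages, had 45.9 in H3.1 K36R and 61.8 in H3.1 K36M, above the H3.3 range of 10.7 to 33.2. Itgb2, a leukocyte integrin chain, had 13.1 and 103.8, against 4.75 to 45.8. With K36M or K36I the sum of the 13 was 1062 to 1743 against 453 to 851 in the other 5 lines, without overlap. Cd68, Cd14 and Lyz2 differed by 0.41, 0.80 and 0.82 in that comparison, with limma adjusted p of 0.0698, 0.0575 and 0.0690. Of the 4 endothelial markers 0 reached 31 normalised reads in an H3.1 library. The 6 epithelial markers summed to 563 and 724 there against 819.8 to 7854 in the H3.3 lines. Within that sum Krt14 had 31.7 in H3.1 K36R and 18.4 in H3.1 K36M, against 67.8 to 7403 in the H3.3 lines. Cdh1 had 527 and 687, inside its H3.3 range of 292 to 1065, so the gap does not describe the epithelial markers as a set. The part of the leukocyte genes in either difference was not tested.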

How the data were processed

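RNA-seq was made from 8 C3H10T1/2 lines with an Illumina TruSeq protocol after Trizol extraction, as the protocols in the labels state. For the authors' steps, the processing notes of the submitters list featureCounts 1.4.4, STAR 2.3.0e, Trimmomatic 0.32, DESeq2 without a version and the build mm10; no source used here gives settings, annotation or strand. What was deposited is 1 table of log2 values for 31276 genes, variance-stabilised by the authors with DESeq2. Inverting it returned whole reads for 100.0% of values within 0.001 reads, which gave the depth (45448249 to 68020958 reads) and the normalised reads printed here. Genes with a mean under 1 above the lowest value (5.95) were set apart, 17061 of them.

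Differences were fitted on the deposited log2 values with limma 3.58.1 (R 4.3.3; trend in the prior variance, two-sided, Benjamini-Hochberg over all 14215 genes tested, threshold 0.05). The fits were K36M and K36I lines against the others, H3.1 against H3.3 with that class as a term, and their interaction. Scripts were tested on simulated data. Alternatives were other filters, equal library medians, log2(normalised reads + 1), array weights, voom, other sample sets and leaving out each library. Coordinates and exon lengths came from GENCODE annotation of GRCm38 and promoters from RefSeq. The members and lists were chosen with earlier results of these data known, and genes were named by role, by passing the test, and as the highest and lowest 3 of each comparison; genes outside that rule were named after their values were seen. Of the other pathway genes, 1 is not reported here and was left out of their counts.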

Additional observations from a re-analysis of the deposited data

Results flagged for a closer look

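In 6 members the H3.1 K36R library stood apart from the other 4 lines that carry neither K36M nor K36I. The measure is the gap to the nearest other line as a share of the whole range of the 5. In groups not chosen by their values, about 1 in 20 passes the critical value of Dixon's test for 5 samples. The share was 0.853 for Usp18, 0.768 for Eif2ak2, 0.767 for Gbp3, 0.762 for Irf1, 0.729 for Bst2 and 0.725 for Gbp2. In each case H3.1 K36R was the highest of the 5 and the only H3.1 line among them. These were found among 62 groups of values examined over 31 members. All 6 had been called higher in H3.1 lines, and that call was 1 reason for examining a member. The rate of 1 in 20 therefore does not apply to them, and they restate the H3.1 difference.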

How the results depend on the processing

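No paired analysis was possible because each transgene had 1 library and the labels give no shared replicate numbers. For H3.1 against H3.3, leaving out 1 library gave 6 to 25 members higher and 0 to 1 lower, with 131 to 1019 genes higher and 52 to 915 lower in all. Array weights gave 14 members (250 genes higher, 164 lower) and the 4 libraries with K36M or K36R gave 2 members (10 higher, 2 lower), while equal medians and voom, the latter added after seeing the data, each gave the same 25. For K36M and K36I against the others, leaving out 1 library gave 2 to 3 members higher, 511 to 989 genes higher and 510 to 1095 lower. Array weights gave 7 members (1969 genes higher, 2105 lower), a histone covariate 9 (1451 and 1508), H3.3 libraries alone 8, and no filter 1540 genes higher. Bst2 and Isg20 passed in all 16 alternatives. The interaction without a filter called 1 member, Zbp1, and 487 genes higher and 311 lower, and it could not be fitted without either H3.1 library. On log2(normalised reads + 1) the members at least 1 higher or lower than WT became 1 and 4 for K36A, 6 and 5 for K36I, 3 lower for K36L, 8 higher for H3.3 K36M and 3 higher for H3.3 K36R. Signs reversed for Adar in the class comparison, to 0.0033 with equal medians, and over the fits that leave out 1 library its difference ran from -0.22 to 0.064. They reversed for Dhx58 in the histone comparison, to 0.25 with the 4 libraries, and ran from -0.39 to 0.26 when 1 library was left out. In the interaction they reversed for Oas1a, to -0.050 on log2(normalised reads + 1) and -0.11 with voom, and for Trim30a, to -0.071 and -0.069. The cause was not tested. Depth limits the 9 members set apart, and 1 library per line limits every comparison.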
